A study of Mus musculus with 15 samples.

Results

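The 10 genes described here encode the DNA methyltransferases Dnmt1, Dnmt3a and Dnmt3b, the methylation reader Uhrf1, the methylcytosine dioxygenases Tet2 and Tet3, and Asxl1, Ppm1d, Sf3b1 and Srsf2, whose human counterparts are often mutated in clonal haematopoiesis. They were listed by name and not by a cut on their measured levels, but with earlier results of these data known. All 10 were among the 16154 genes of the count table. Each was measured in 15 RNA-sequencing libraries of haematopoietic stem cells (HSC) from C57BL/6 mice labelled female. The groups were young mice of 6 to 12 weeks that received no nicotinamide riboside (NR), aged mice of 20 to 24 months that received none, and aged mice of the same age range given NR in the drinking water at 3 mg/ml for 2 months, with 5 mice and 5 libraries per group. No young mice given NR were part of these libraries, so the comparisons were aged with young, NR-treated aged with aged, and NR-treated aged with young HSC. The last asks how far the treated cells stood from young cells, and the 3 comparisons share their libraries.

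DNA methylation places a methyl group on cytosines that precede a guanine (CpG). Dnmt3a and Dnmt3b set new marks, while Uhrf1 binds hemimethylated DNA behind the replication fork and brings in Dnmt1 to copy the marks to the new strand. Tet enzymes oxidise the methyl group, which can lead to its removal. In blood-forming tissue, clones that carry mutations in DNMT3A, TET2, ASXL1, PPM1D, SF3B1 or SRSF2 expand with age in many people, which is called clonal haematopoiesis. The libraries here measured only the RNA of these genes. They report neither mutations nor methylation.

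In GENCODE M21 on GRCm38, genes on the plus strand were Dnmt3a at chr12:3806007-3914443, Dnmt3b at chr2:153649450-153687730, Uhrf1 at chr17:56303321-56323486, Asxl1 at chr2:153345829-153404007 and Ppm1d at chr11:85311244-85347066. On the minus strand were Dnmt1 at chr9:20907209-20959888, Tet2 at chr3:133463679-133545139, Tet3 at chr6:83362373-83459084, Sf3b1 at chr1:54985169-55027481 and Srsf2 at chr11:116849901-116853094.

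The promoters of the genes on which the results turn are shown as reference sequence. Each run gives the 150 bases before an annotated start in 5′ to 3′ direction on the gene's strand, from RefSeq on GRCm38.p6. Capitals mark GC boxes (GGGCGG or CCGCCC) and CCAAT boxes (CCAAT or ATTGG). Dnmt3a had 3 such starts and Uhrf1 had 2, and the start richest in CpG is shown. For both genes the run shown lies inside the gene span given above, so it is an alternative start.
Dnmt3b, chr2:153649299-153649448, plus strand: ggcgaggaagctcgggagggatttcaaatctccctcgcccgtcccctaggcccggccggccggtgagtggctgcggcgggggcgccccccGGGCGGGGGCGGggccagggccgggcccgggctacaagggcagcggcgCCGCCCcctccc
Dnmt3a, chr12:3807010-3807159, plus strand: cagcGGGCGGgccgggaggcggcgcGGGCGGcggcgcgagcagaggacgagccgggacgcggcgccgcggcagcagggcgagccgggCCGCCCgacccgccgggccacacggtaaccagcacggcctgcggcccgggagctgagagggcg
Uhrf1, chr17:56304163-56304312, plus strand: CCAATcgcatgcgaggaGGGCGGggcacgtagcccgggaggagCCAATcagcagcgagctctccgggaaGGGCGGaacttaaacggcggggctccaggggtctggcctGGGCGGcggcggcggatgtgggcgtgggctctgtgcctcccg
Srsf2, chr11:116853095-116853244, minus strand: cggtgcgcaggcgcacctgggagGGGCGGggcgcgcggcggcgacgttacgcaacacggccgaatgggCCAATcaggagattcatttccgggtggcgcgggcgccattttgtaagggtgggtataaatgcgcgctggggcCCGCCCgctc
Among windows of 300 bases around the start (250 before and 50 after, and for genes with several starts the window richest in CpG), the 10 genes held 13 (Asxl1) to 57 (Tet2) CpG. The median of 10319 genes of the count table with a window, chosen in the same way, was 21 CpG with quartiles of 13 and 30. A GC box was found in the windows of all 10 genes and in 65.4% of those of the 10319 genes. A CCAAT box was found for 5 of the 10, namely Dnmt1, Tet3, Uhrf1, Ppm1d and Srsf2, against 38.01% of the 10319. Of the E2F motif forms searched on both strands, TTTGGCGC occurred in the window of Dnmt1 and in 1.08% of all genes' windows, and TTTCCCGC in none of the 10 and in 2.11%. These matches describe the letters of the window and not a bound site.

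Libraries held 2122221 to 3631395 counts in young, 764119 to 13318989 in aged and 2486399 to 3595384 in NR-treated aged HSC, so depth was most uneven in the aged group. A level of 3 counts, taken as the limit of detection, corresponded to 0.225 to 3.93 CPM, the counts scaled to library size, for counting error only. The sorted cells were Lin-Sca-1+cKit+CD150+CD48- by the study's methods, and the HSC marker genes Kit, Hlf, Mecom and Procr were present in every group. Of 12 HSC marker genes, 4 were higher and 2 lower in aged than in young HSC (50% in all, beside 19.3% of all genes). Among them were Procr (2.41-fold higher), Cd34 (2.39-fold lower) and Flt3 (4.08-fold lower). Slamf1, which encodes the CD150 of the gate, was at 42.7 CPM in young, 76.5 in aged and 53.7 in NR-treated aged HSC, and passed both as higher with age (adjusted p = 0.000373) and as lower in NR-treated than in aged HSC (0.0288). Genes of mature blood cells took 0.104 to 1.16% of counts in young, 0.718 to 0.979% in aged and 0.0773 to 0.196% in NR-treated aged libraries. Of 22 such genes, 5 passed the test as higher in aged than in young HSC (22.7%, beside 9.68% of all genes as higher). As lower in NR-treated aged than in aged HSC, 19 passed (86.4%, beside 4.18% of all genes as lower). These counts were 14 without young replicate 3 and 2 without young replicates 1 and 5 with age, and 12, 12 and 10 without aged replicate 3, NR replicate 3 or NR replicate 4 in the comparison with NR. Cd48, whose protein was gated out, was at 12.2 CPM in young, 24.2 in aged and 3.50 in NR-treated aged HSC. The part of the marker genes in the differences below was not tested. Young replicates 1 and 5 carried 104 and 108 CPM of transcripts of 4 Y-linked genes, against 0.757 to 3.16 in the other 13 libraries, so calls that were lost without them are named below. Since RNA was measured in bulk, fewer cells of a kind and less RNA per cell cannot be told apart.

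Of the 10 genes, 7 were lower and 1 was higher in aged than in young HSC. The genes that fell were the 3 methyltransferases, Uhrf1, Tet3, Asxl1 and Ppm1d. The gene that rose was Srsf2, while Tet2 and Sf3b1 did not pass the test. Changes are log2 fold changes (log2FC) ± standard error, tested with edgeR's quasi-likelihood test, and a gene passed at a Benjamini-Hochberg adjusted p under 0.05 over all 16154 genes. Of all genes, 19.3% passed in this comparison, 9.63% as lower and 9.68% as higher. The median log2FC of the 10 genes was -0.66, against -0.03 over all genes. Every young value lay apart from every aged value for 6 of the 10 genes, with 5 lower and 1 higher in aged HSC, while the groups did not overlap for 12.4% of all genes. Values of single libraries are given below in the order of the replicate numbers 1 to 5, which do not pair the mice.

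**Figure D1:**
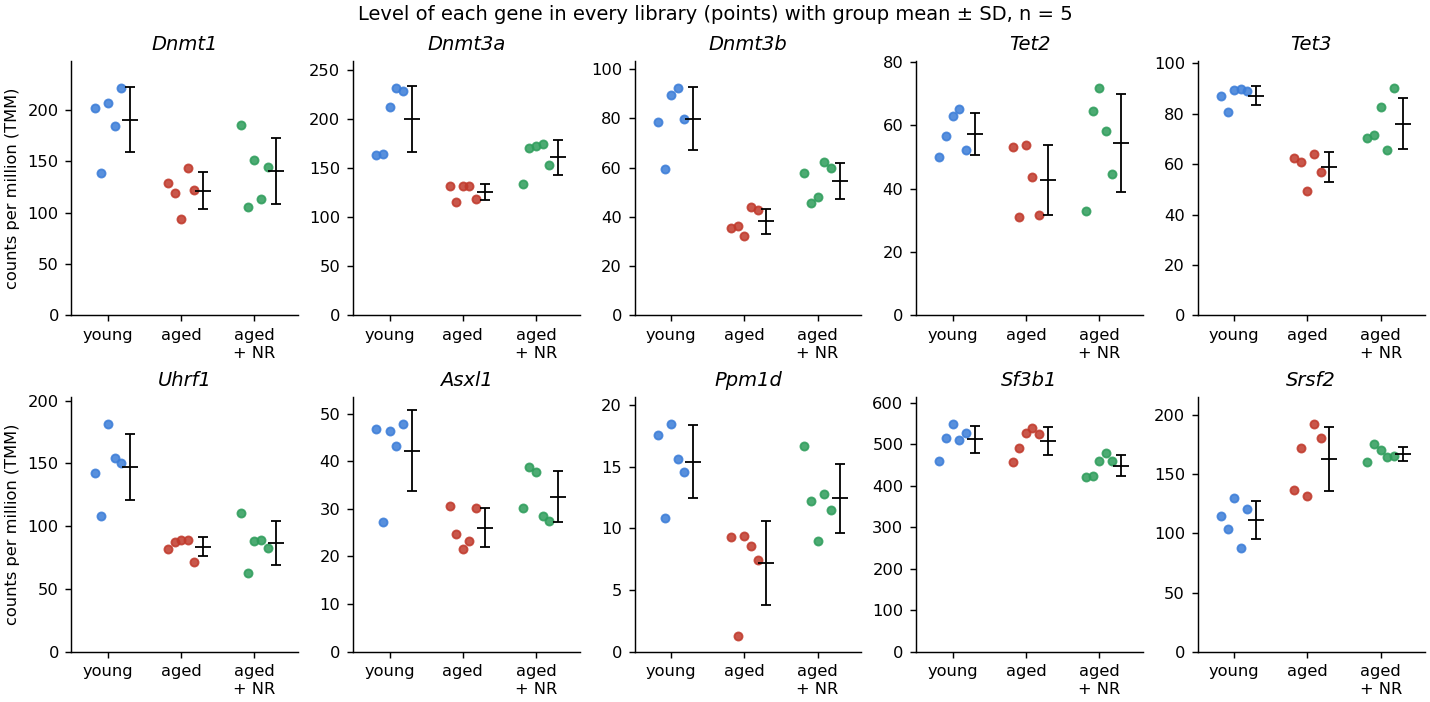
Level of each of the 10 genes in CPM with TMM library sizes (vertical axes, from 0) in young, aged and NR-treated aged (aged + NR) HSC, with a point per library and bars for the group mean ± SD (n = 5). The aged points of Dnmt3b, from 32.1 to 43.9 CPM, lie below all young points, and the 5 young points of Srsf2, up to 129.8 CPM, lie below all points of both other groups.

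Dnmt1, which copies methylation at replication, was measured at 201.4, 138.6, 206.6, 184.3 and 220.6 CPM in young, at 128.6, 119.4, 93.2, 143.1 and 121.9 CPM in aged, and at 185.3, 105.5, 150.9, 113.2 and 144.6 CPM in NR-treated aged HSC. A single young library, replicate 2, reached into the aged range, and the NR libraries spread over both. The level fell from a mean of 190.3 ± 31.7 (SD) in young to 121 ± 18.2 CPM in aged HSC (log2FC -0.65 ± 0.16, adjusted p = 0.00679). The NR-treated mean was 139.9 ± 32.0 CPM, and neither its difference from aged (log2FC 0.21 ± 0.16, adjusted p = 0.425) nor that from young HSC (-0.44 ± 0.16, adjusted p = 0.119) passed the test. Without young replicates 1 and 5 the decrease with age did not pass (log2FC -0.54, adjusted p = 0.0605), whereas the difference between NR-treated and young HSC passed without young replicate 2 (adjusted p = 0.0391) or NR replicate 1 (0.0473).

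Uhrf1, the partner that recruits Dnmt1, stood at 142.1, 107.7, 181.0, 154.5 and 150.2 CPM in young, at 81.9, 86.9, 88.9, 88.9 and 71.7 CPM in aged, and at 110.7, 62.3, 88.3, 89.1 and 82.5 CPM in NR-treated aged libraries. All aged values were below all young values, and 4 of the 5 NR values were also below every young value. The decrease with age was 1.76-fold (log2FC -0.82 ± 0.14, adjusted p = 0.000635). NR-treated and aged HSC had close means of 86.6 ± 17.3 and 83.7 ± 7.27 CPM, with a difference of 0.05 ± 0.14 on the log2 scale (adjusted p = 0.861). NR-treated HSC remained lower than young HSC (log2FC -0.76 ± 0.14, adjusted p = 0.00276), and the call held whichever of the 15 libraries was dropped.

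The de novo methyltransferase Dnmt3b had the largest change of the 10 genes between aged and young HSC. It was counted at 78.6, 59.5, 89.4, 92.1 and 79.8 CPM in young, 35.5, 36.3, 32.1, 43.9 and 43.0 CPM in aged, and 57.6, 45.6, 48.2, 62.1 and 59.9 CPM in NR-treated aged HSC. The aged libraries were the lowest without overlap, and the NR libraries lay between them and young HSC, reaching only the lowest young library. The fall with age was 2.09-fold (log2FC -1.06 ± 0.14, adjusted p = 2.99e-05). Between NR-treated and aged HSC Dnmt3b rose by 0.52 ± 0.14 on the log2 scale (adjusted p = 0.0298), but was still below young HSC (log2FC -0.55 ± 0.14, adjusted p = 0.0244). The rise passed in 11 of 15 fits with a library left out, and was lost without aged replicate 1 (adjusted p = 0.0512), aged replicate 3 (0.0857), NR replicate 4 (0.0798) or NR replicate 5 (0.0579). The difference from young HSC was lost without young replicate 3 (0.0576) or 4 (0.0727), or NR replicate 2 (0.0735) or 3 (0.0606), and without young replicates 1 and 5 together, where the log2FC stayed at -0.55 (0.0791).

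Its relative Dnmt3a, the methyltransferase most often mutated in clonal haematopoiesis, gave 163.2, 164.8, 212.0, 231.1 and 228.2 CPM in young, 131.6, 115.5, 132.2, 131.6 and 118.5 CPM in aged, and 133.6, 170.5, 172.7, 174.6 and 152.8 CPM in NR-treated aged libraries. Aged values formed a narrow band (SD 8.19 CPM) below every value of both other groups. Dnmt3a fell with age (log2FC -0.66 ± 0.12, adjusted p = 0.000712). Although all 5 NR libraries exceeded all 5 aged libraries, the difference of 0.35 ± 0.12 on the log2 scale had an adjusted p of 0.0734. It passed with DESeq2 (0.0385), in a fit of these groups alone (0.0413), with library totals in place of TMM sizes (0.0178), when genes under 10 counts in any library were dropped (0.0326) and without NR replicate 1 (0.0389). These were the only passes, in 4 of the 9 alternatives that left out no single library and in 1 of 15 fits with a library left out. The adjusted p reached 0.156 in the latter. The difference between NR-treated and young HSC was -0.31 ± 0.12 (adjusted p = 0.145).

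Tet3 was at 87.0, 80.8, 89.4, 90.0 and 89.3 CPM in young, 62.6, 61.0, 49.4, 64.2 and 57.0 CPM in aged, and 70.3, 71.5, 82.8, 65.7 and 90.1 CPM in NR-treated aged HSC. Neither young nor NR values overlapped with aged values. Tet3 fell with age (log2FC -0.57 ± 0.11, adjusted p = 0.00145) and was higher in NR-treated than in aged HSC by 0.38 ± 0.11 (adjusted p = 0.0425). The latter call was fragile, since it passed in 6 of 15 fits with a library left out, with an adjusted p of up to 0.124 without aged replicate 3. The libraries without which it was lost were young replicates 1 and 5, aged replicates 2, 3, 4 and 5, and NR replicates 2, 3 and 5. It was also lost in a fit of these groups alone (0.0620), with the replicate number as a block (0.0714) and without young replicates 1 and 5 together, where the log2FC was 0.38 (0.0622).

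Tet2, whose loss-of-function mutations are common in clonal haematopoiesis, had wider spread. Its level ranged from 49.8 to 64.9 CPM (median 56.7) in young, from 31.1 to 53.8 (median 43.6) in aged and from 33.1 to 71.6 (median 58.1) in NR-treated aged libraries. The groups overlapped in every comparison. The differences of -0.39 ± 0.19 (aged minus young, adjusted p = 0.167), 0.31 ± 0.19 (NR-treated minus aged, adjusted p = 0.326) and -0.08 ± 0.19 (NR-treated minus young, adjusted p = 0.879) on the log2 scale did not pass.

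Asxl1 is a partner of the deubiquitinase Bap1, which acts on a histone mark. It was at 46.7, 27.3, 46.3, 43.2 and 47.7 CPM in young and at 30.6, 24.7, 21.6, 23.3 and 30.1 CPM in aged HSC. In NR-treated aged HSC the values were 30.2, 38.8, 37.7, 28.5 and 27.5 CPM, and 4 of the young libraries stood above all others, while young replicate 2 lay within the aged range. Asxl1 fell with age (log2FC -0.69 ± 0.17, adjusted p = 0.00707), but without young replicates 1 and 5 the log2FC was -0.57 and the adjusted p 0.0685. Exons of Asxl1 share 2.65% of their bases with 2500004C02Rik on the opposite strand, which did not pass (log2FC 0.19, adjusted p = 0.570). The NR-treated group did not pass against aged (log2FC 0.31 ± 0.17, adjusted p = 0.250) or young HSC (-0.38 ± 0.17, adjusted p = 0.229).

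Ppm1d, a phosphatase that switches off p53 and the DNA damage response, was the gene of the 10 with the fewest counts. It had 17.5, 10.9, 18.4, 15.6 and 14.6 CPM in young, 9.2, 1.3, 9.4, 8.5 and 7.4 CPM in aged, and 16.7, 12.2, 8.9, 12.8 and 11.4 CPM in NR-treated aged libraries. The value of 1.3 CPM came from 1 count in aged replicate 2, the library with the lowest total, and is below the limit of 3 counts. All aged libraries were below all young libraries, and Ppm1d fell with age (log2FC -0.94 ± 0.25, adjusted p = 0.0138). The call held when any 1 of the 15 libraries, aged replicate 2 included, was dropped, while without young replicates 1 and 5 the log2FC was -0.89 with an adjusted p of 0.0626. NR-treated HSC differed by 0.63 ± 0.25 from aged (adjusted p = 0.121) and by -0.30 ± 0.25 from young HSC (adjusted p = 0.578).

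Srsf2 and Sf3b1 both act in splicing. Srsf2 is an SR protein that binds exonic enhancers, and Sf3b1 is the subunit of the U2 snRNP that contacts the branch point. Srsf2 had 114.4, 104.1, 129.8, 87.8 and 120.8 CPM in young, 137.0, 172.6, 131.8, 192.4 and 181.0 CPM in aged, and 160.2, 176.2, 170.3, 165.1 and 165.3 CPM in NR-treated aged libraries. All 10 aged libraries, treated or not, were above all young libraries. Srsf2 rose with age by 0.54 ± 0.12 on the log2 scale (adjusted p = 0.00466) and was also above young HSC in the NR-treated group (0.59 ± 0.12, adjusted p = 0.00671). NR-treated and aged HSC differed by 0.04 ± 0.12 (adjusted p = 0.861), although the NR values were closer together (SD 6.08 CPM) than the aged values (SD 27.1 CPM). Exons of Srsf2 share 15.6% of their bases with Mettl23 and 9.74% with Mfsd11, both on the opposite strand, and neither passed the test between aged and young HSC (log2FC 0.31, adjusted p = 0.0889, and 0.39, adjusted p = 0.208). The strand setting of the counting, on which the counts of Srsf2 and Asxl1 depend, is not given in the sources used here.

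Sf3b1 changed least with age among the 10 genes. It ranged from 459.0 to 547.9 CPM (median 515.6) in young, from 456.6 to 539.6 (median 524.2) in aged and from 420.9 to 477.8 (median 459.6) in NR-treated aged libraries. Aged minus young was -0.01 ± 0.09 on the log2 scale (adjusted p = 0.944), and the NR-treated group lay lower by -0.18 ± 0.09 against aged (adjusted p = 0.214) and -0.19 ± 0.09 against young HSC (adjusted p = 0.261), none of which passed.

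**Figure D2:**
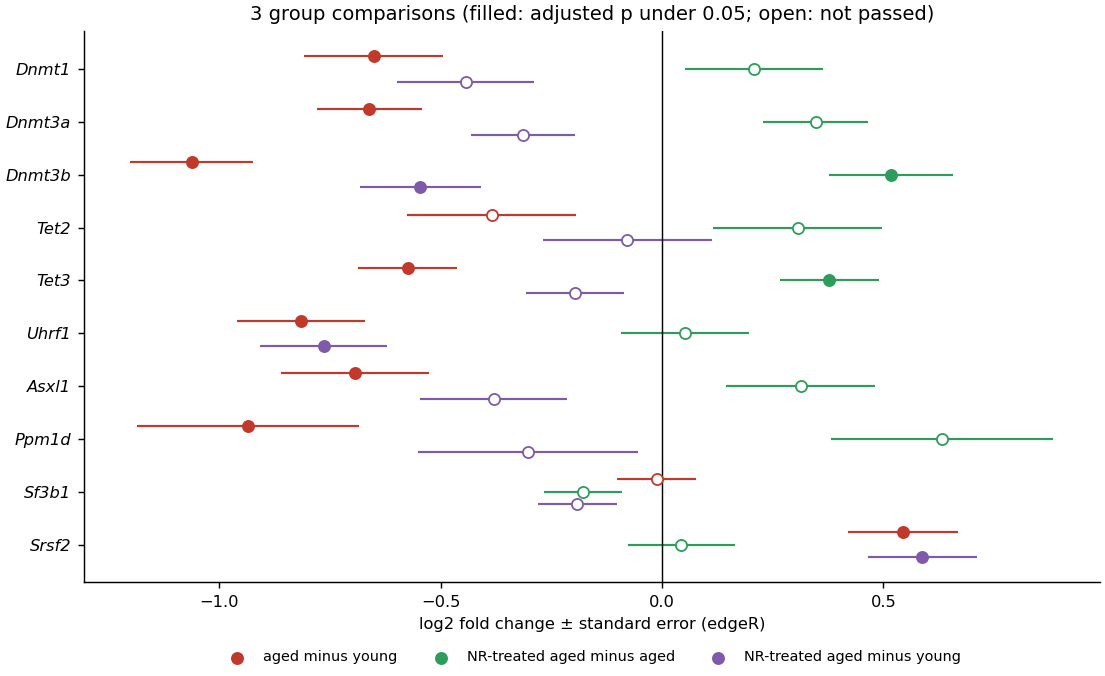
Log2 fold change (horizontal axis) ± standard error from edgeR for each of the 10 genes (vertical axis) between aged and young (red), NR-treated aged and aged (green) and NR-treated aged and young HSC (purple), with filled points for an adjusted p under 0.05. The red points run from -1.06 for Dnmt3b to 0.54 for Srsf2, and the filled green points are Dnmt3b at 0.52 and Tet3 at 0.38.

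Between NR-treated aged and aged HSC, 2 of the 10 genes passed, Dnmt3b and Tet3, and both were higher. Of all genes, 8.07% passed in this comparison, 3.88% as higher and 4.18% as lower. The libraries of the groups did not overlap for 3 of the 10 genes, Dnmt3a, Dnmt3b and Tet3, against 8.6% of all genes. The median log2FC of the 10 was 0.31, against 0.02 over all genes. In the same comparison the 19 mature blood cell genes were lower, and their part in the differences of Dnmt3b and Tet3 was not tested. Since the aged libraries enter both this comparison and that with young HSC, opposite signs in these are not independent observations.

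Between NR-treated aged and young HSC, 3 of the 10 genes passed. Uhrf1 and Dnmt3b were lower and Srsf2 was higher, while 4.47% of all genes passed, 1.91% as lower and 2.56% as higher. For Srsf2 alone the libraries did not overlap, which was the case for 4.74% of all genes. The median log2FC of the 10 genes was -0.31, against -0.00461 over all genes.

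Changes of pairs of genes were set side by side as ratios of counts within a library, which do not depend on the library size. The pairs were chosen after the values of the genes had been seen, so the ratios are given as a description, without p-values. Dnmt3b relative to Uhrf1 had a mean log2 ratio of -0.88 ± 0.0990 (SD, n = 5) in young, -1.14 ± 0.28 in aged and -0.65 ± 0.24 in NR-treated aged HSC. The aged and NR-treated libraries overlapped, with aged replicate 5 at -0.74 above NR replicates 1 and 3 at -0.94 and -0.87. Dnmt3b relative to Dnmt3a was at -1.32 ± 0.19 in young, -1.73 ± 0.23 in aged and -1.56 ± 0.30 in NR-treated aged HSC, with overlap of all groups. Among the splicing genes, Srsf2 relative to Sf3b1 was at -2.21 ± 0.22 in young, -1.65 ± 0.22 in aged and -1.42 ± 0.10 in NR-treated aged HSC. The 5 aged values of this ratio, from -1.998 to -1.49, were all above the 5 young values, from -2.54 to -2.004, by a small gap, and overlapped with the NR-treated values.

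**Figure D3:**
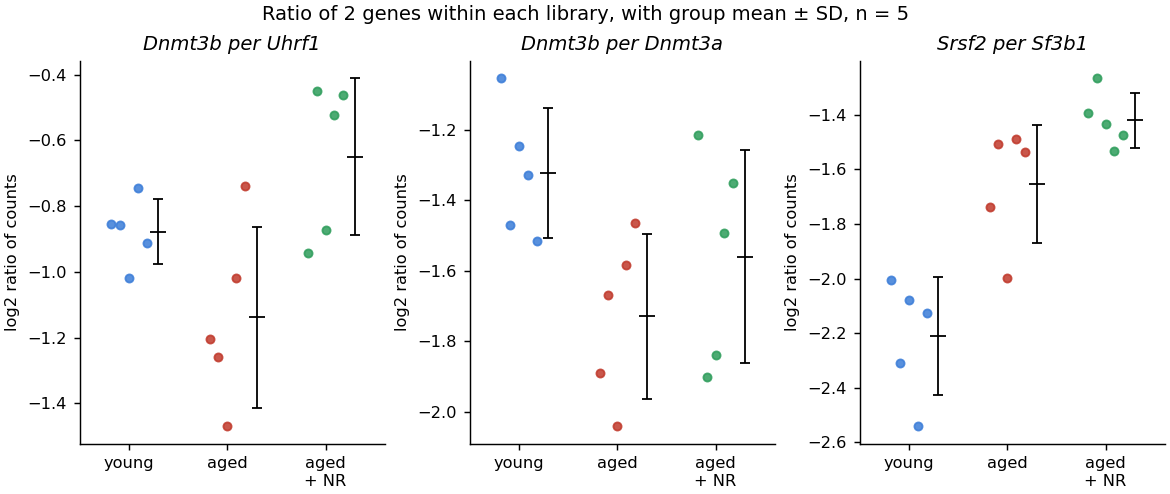
Log2 ratio of the counts of Dnmt3b to Uhrf1, Dnmt3b to Dnmt3a and Srsf2 to Sf3b1 (vertical axes, not starting at 0) in each library of young, aged and NR-treated aged HSC, with the group mean ± SD (n = 5). The mean of Srsf2 to Sf3b1 is -2.21 in young, -1.65 in aged and -1.42 in NR-treated aged HSC, where the aged and NR-treated points overlap, and the NR-treated points of Dnmt3b to Uhrf1 overlap with the aged points.

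The other genes of these pathways were taken from lists of names. Of 23 other DNA methylation genes in the table, 3 (13.0%) passed as lower and none as higher in aged than in young HSC, beside 9.63% and 9.68% of all genes. The count was 6 without young replicate 2, 2 without young replicates 1 and 5, and between 2 and 8 in the other alternatives. These were Tet1, the third dioxygenase (103 ± 11.8 to 55.3 ± 5.52 CPM, log2FC -0.88, adjusted p = 1.12e-05), Uhrf2, the relative of Uhrf1 (log2FC -0.55, adjusted p = 0.0112), and Usp7, a deubiquitinase that stabilises Dnmt1 and Uhrf1 (-0.47, adjusted p = 0.0417). Between NR-treated and aged HSC 3 of the 23 passed (13.0%, beside 8.07% of all genes), 1 as higher and 2 as lower. Uhrf2 was higher (0.63, adjusted p = 0.0132), and its difference from Uhrf1 was not tested. Idh1, which makes the cofactor of the Tet enzymes, was lower (-0.99, adjusted p = 0.0188). The other was the methyl-CpG reader Zbtb38 (-0.36), and 1 of the 23 passed without aged replicate 3 or NR replicate 4. Against young HSC, NR-treated HSC had lower Tet1 (-0.56, adjusted p = 0.00302) and lower Hells, a remodeller needed for DNA methylation (-0.55, adjusted p = 0.0362). Of these only 1 passed without young replicate 1, 3, 4 or 5, or NR replicate 1, 2 or 5.

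Of 30 other genes mutated in clonal haematopoiesis, 8 were lower and 1 was higher with age (30.0% in all, beside 19.3% of all genes). The count was 6 to 11 with single libraries left out, 5 without young replicates 1 and 5, and 5 to 12 over all the other alternatives. Among them were the transcription factors Cux1 (log2FC -0.74, adjusted p = 0.000923) and Etv6 (-0.48, adjusted p = 0.00222) and the corepressor Bcorl1 (-1.02, adjusted p = 0.00131), and the gene that rose was Nras (0.40, adjusted p = 0.0164). Between NR-treated and aged HSC 2 of the 30 passed (6.67%, beside 8.07% of all genes), Etv6 as higher and Idh1 as lower. The count became 0 to 3 with single libraries left out (0 without aged replicate 3 or NR replicate 4). Between NR-treated and young HSC 3 passed as lower (10%, beside 1.91% of all genes as lower), and none did without young replicates 1 and 5. Of 10 partner and paralogue genes of Asxl1, 3 fell and 1 rose with age (40% in all, beside 19.3% of all genes). The calls were 1 in all without young replicates 1 and 5. Between NR-treated and aged HSC 2 of the 10 passed (20%, beside 8.07% of all genes), 1 as higher and 1 as lower (1 to 2 with single libraries left out). Asxl2, the paralogue of Asxl1, fell with age (-0.77, adjusted p = 0.000558) and was higher after NR (0.67, adjusted p = 0.00773). Foxk1 went the other way, higher with age (0.59, adjusted p = 0.0107) and lower after NR (-0.54, adjusted p = 0.0325). Of 12 genes of the p53 and Ppm1d pathway, 4 fell with age (33.3%, beside 19.3% of all genes), and 1 did without young replicates 1 and 5. Mapk14, the p38 kinase that Ppm1d dephosphorylates, fell by 0.70 on the log2 scale (adjusted p = 0.000554). It was the 1 gene of the 12 that passed between NR-treated and aged HSC (8.33%, beside 8.07% of all genes), as higher (0.47, adjusted p = 0.0241). None of the 12 passed in that comparison without aged replicate 3 or 4, or NR replicate 4 or 5.

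Of 15 genes of the SF3 complex and its U2 partners, Sf3a1 alone passed with age (log2FC -0.31, adjusted p = 0.0431). This is 6.67% of the list, beside 19.3% of all genes, and none passed in the comparisons with NR-treated HSC. The 1 call with age became 0 in a fit of the compared groups, with the replicate block, without young replicates 1 and 5, and without any of young replicates 1, 4 and 5, aged replicates 2 to 5 and NR replicate 5, and 3 with DESeq2, library totals or the filter on 10 counts. Of 12 other SR protein genes, 3 passed with age, Srsf1 (-0.44, adjusted p = 0.0143), Srsf6 (-0.31, adjusted p = 0.0342) and Tra2a (-0.38, adjusted p = 0.0405), and all were lower, opposite in sign to Srsf2. This is 25% of the list, beside 19.3% of all genes, and 1 of the 12 passed without young replicates 1 and 5, young replicate 5, aged replicate 2 or aged replicate 3. None of the 12 passed in the comparisons with NR-treated HSC, although up to 2 did between NR-treated and aged HSC in the alternatives.

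**Figure D4:**
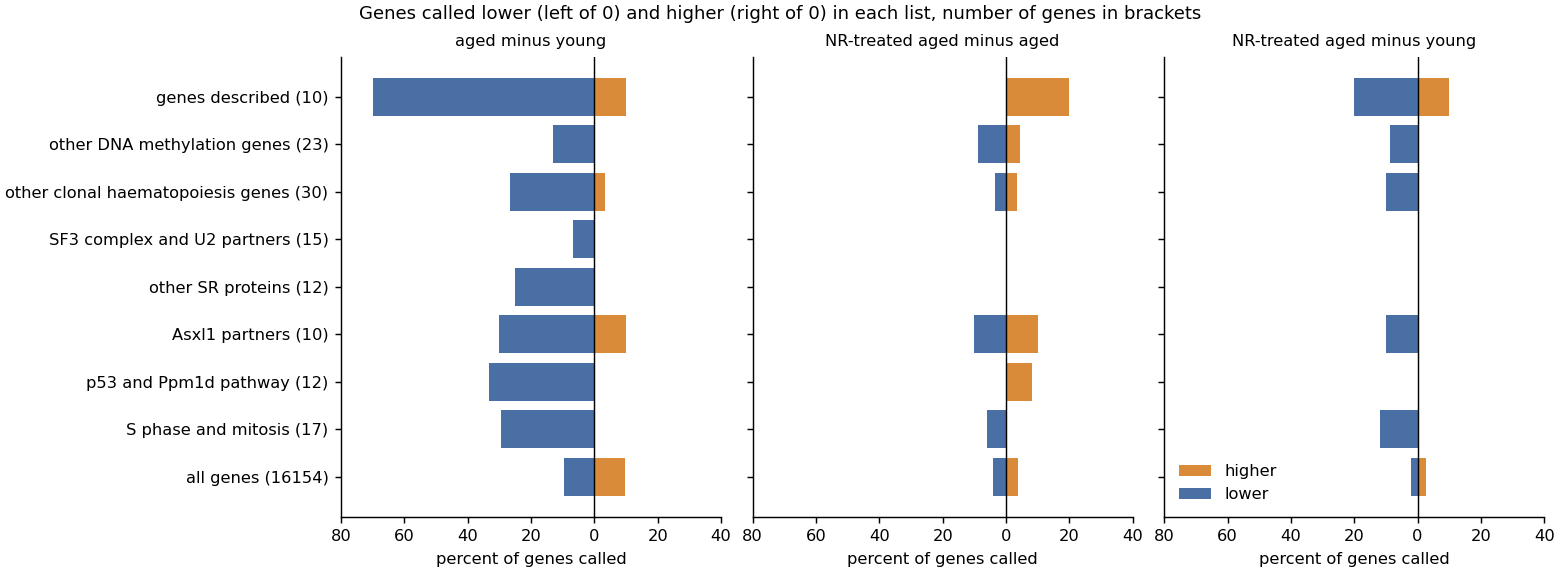
Percent of genes called lower (left of 0) and higher (right of 0) at an adjusted p under 0.05 in the 10 genes described, in lists of related genes (numbers in brackets) and in all 16154 genes, in the 3 comparisons. In aged minus young, 7 of the 10 genes are lower and 1 is higher, against 9.63% and 9.68% of all genes.

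Because Uhrf1 and Dnmt1 work at the replication fork, they were set beside 17 genes of S phase and mitosis. Between aged and young HSC 5 of these (29.4%) passed as lower and none as higher, beside 9.63% and 9.68% of all genes. All 5 encode Mcm helicase subunits, and no other gene of the list passed. They were led by Mcm3 (log2FC -0.71, adjusted p = 0.00117) and Mcm4 (-0.65, adjusted p = 0.00338), and the median log2FC of the list was -0.30. Mcm3 and Mcm4 also passed as lower in NR-treated than in young HSC (-0.59, adjusted p = 0.0139, and -0.51, adjusted p = 0.0386), as Uhrf1 did, but neither did without NR replicate 4 or without young replicates 1 and 5. Between NR-treated and aged HSC 1 gene passed, Rrm2 (-0.93, adjusted p = 0.0452), which is 5.88% of the list beside 8.07% of all genes. None passed without young replicate 1, 4 or 5, aged replicate 2, 3 or 4, or NR replicate 4 or 5. Within groups, deviations of the 15 libraries from the group means of log2 CPM were correlated between Uhrf1 and the mean of the list (Pearson r = 0.704, permutation p = 0.00939, adjusted p = 0.0333; Spearman rho = 0.543, permutation p = 0.0602, adjusted p = 0.120). For Dnmt1 and the list r was 0.645 (permutation p = 0.0250, adjusted p = 0.0333) and rho 0.596 (permutation p = 0.0363, adjusted p = 0.120). For Dnmt1 and Uhrf1 r was 0.664 (permutation p = 0.0213, adjusted p = 0.0333) and rho 0.439 (permutation p = 0.144, adjusted p = 0.192). Leaving out the 2 libraries farthest from the median of the first gene lowered r to 0.507, 0.497 and 0.332, and rho to 0.401, 0.473 and 0.143. These relations rested in part on those libraries, and that of Dnmt1 and Uhrf1 did so the most. Dnmt3a and Dnmt3b showed no such relation (r = 0.245, permutation p = 0.494, rho = 0.286, permutation p = 0.361, and r = -0.0409 without the farthest 2). These were 4 relations, adjusted together.

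**Figure D5:**
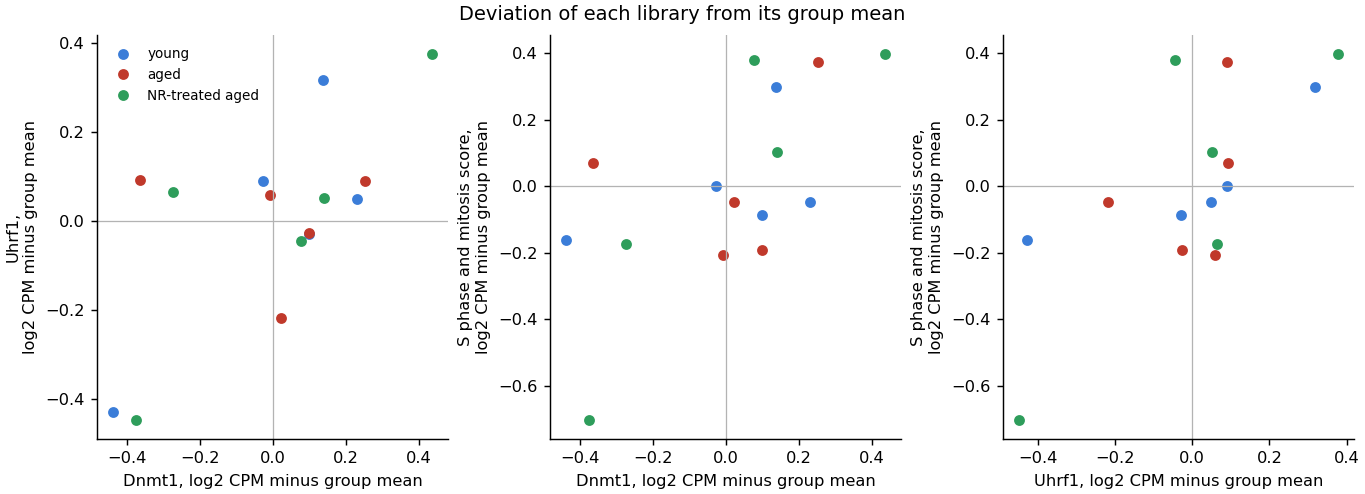
Deviation of each of the 15 libraries from its group mean on the log2 CPM scale, for Dnmt1 against Uhrf1, Dnmt1 against the mean of the S phase and mitosis genes, and Uhrf1 against that mean, with colours for the groups. Points rise from lower left to upper right (r = 0.664, 0.645 and 0.704), and single libraries at both ends carry much of the relation.

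The genes with the most similar pattern were ranked by Pearson r of log2 CPM over the 15 libraries among 7928 genes (at least 10 counts in each library, without predicted genes, clones and pseudogenes), as a description in which the group differences, library size factors and libraries are shared. For Uhrf1 the nearest were Pole, a replicative DNA polymerase subunit (r = 0.901), the nuclear envelope gene Nrm (0.899) and the nucleoporin Nup50 (0.894). Dnmt3b was nearest to Pola1, the polymerase that starts new strands (0.930), Brca2 (0.926) and Topbp1 (0.924), which act in repair and replication. For Dnmt1 they were Timeless, a replication fork protein (0.918), the lectin Mlec (0.915) and Sf3a1 (0.906), and for Dnmt3a the integrin Itga4 (0.935), the Mediator subunit Med13 (0.932) and the corepressor Ncor1 (0.930).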

How the data were processed

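RNA-sequencing libraries were 3′ biased, carried a 10 bp unique molecular identifier (UMI) and came from 20000 to 25000 HSC of single mice, so replicates are separate mice. Per the study's methods and processing notes, the authors aligned reads to GRCm38 with STAR 2.4.2a, removed UMI duplicates with Je, counted on GENCODE M15 exons with featureCounts and deposited raw counts per gene after a filter that asked for over 5 reads and over 2 CPM in 2 or more samples. A 3′ biased count does not scale with transcript length. Each gene, and each ratio of 2 genes, was set beside its own values in the other groups. Apart from naming Ppm1d as the gene with the fewest counts, levels were not compared between genes. No column lacked a sample, and replicates differed by more than sampling noise (lowest chi-square per degree of freedom 2.997).

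The counts were tested in R 4.3.3 with edgeR 4.0.16 (TMM sizes, 1 quasi-likelihood fit of the 15 libraries by group, Benjamini-Hochberg adjustment over all genes). The standard error is the log2 fold change divided by the root of the F statistic. CPM values use TMM sizes. Relations were tested by 100000 permutations within groups with a prior count of 2. Python 3.11.15 with SciPy 1.17.1 and pandas 2.3.3 was used. On simulated data with 200 of 16154 genes changed 2-fold between aged and young HSC, 104 were recovered (52%), and 2.80% of the calls were false. The simulation set no other difference in composition between libraries, whereas 19.3% of genes passed between aged and young HSC in the data. Promoter windows came from RefSeq (GRCm38.p6) and exon overlaps from GENCODE M21, a later release than that used for counting.

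The genes and lists were chosen with earlier results of these data known. All 10 genes are named, with at most 3 per list and comparison by smallest adjusted p among those that passed, and the 3 most similar genes for Dnmt1, Dnmt3a, Dnmt3b and Uhrf1, leaving out predicted genes, clones and pseudogenes. Mettl23, Mfsd11 and 2500004C02Rik were named for their overlap, and Nras (the single gene of its list that rose) and the ratios were added after the values were seen. The alternatives were the likelihood ratio test used by the study, DESeq2 1.42.0, fits of the compared groups only, library totals, DESeq2 size factors, only genes that never fell under 10 counts (8444), thinning to the smallest total, a block for the replicate number, removal of young replicates 1 and 5, and each library left out in turn.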

Additional observations from a re-analysis of the deposited data

Results flagged for a closer look

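Levels of the 10 genes were checked in the 3 groups for a library far from the other 4 by Dixon's test, over 30 groups of 5, of which chance marks about 1 in 20. Asxl1 in young replicate 2 stood at 27.3 CPM, while the other young libraries were between 43.2 and 47.7 CPM (gap of 0.776 of the range, critical value 0.71). Ppm1d in aged replicate 2 stood at 1.30 CPM, from 1 count in the library with the lowest total, while the other aged libraries were between 7.43 and 9.38 CPM (gap of 0.759 of the range). Both decreases with age passed the test without these libraries. The cause of either value was not tested.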

How the results depend on the processing

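With thinned counts 1498 genes passed between aged and young, 423 between NR-treated and aged and 407 between NR-treated and young HSC, and of the 10 genes Asxl1 and Ppm1d (aged against young) both calls between NR-treated and aged HSC (0 left) and Dnmt3b (NR-treated against young) were lost. Without young replicates 1 and 5, 1862 genes and 5 of the 10 passed with age, and 1 of the 10 between NR-treated and aged HSC. Among genes that never fell under 10 counts, 783 passed between NR-treated and aged HSC. Leaving out single libraries gave 1953 to 3533 genes with age and 8 of the 10 each time, 422 to 1535 and 0 to 3 between NR-treated and aged, and 452 to 922 and 2 to 4 between NR-treated and young HSC. The lowest counts came without aged replicate 3 (1953 with age and 422 with NR) and NR replicate 4 (534 and 452), and counts with NR were also low without aged replicate 5 (607) and NR replicate 3 (538). Over these fits small differences changed sign, with ranges of -0.0494 to 0.0239 for Sf3b1 with age, -0.0440 to 0.15 for Uhrf1 and -0.0182 to 0.12 for Srsf2 between NR-treated and aged, and -0.20 to 0.0652 for Tet2 between NR-treated and young HSC. With the replicate block 2836, 1048 and 589 genes passed, and 8, 1 and 3 of the 10. Same-numbered libraries did not deviate together (mean correlation 0.00211, 1 of 15 pairs over 0.1), so the numbers were not taken as pairs. Library totals in place of TMM moved the median log2FC of all genes from -0.03 to -0.16 with age and from 0.02 to 0.16 between NR-treated and aged. The share of calls that were higher moved from 50.1% to 29.1% and from 48.1% to 78.4%, while the aged against young calls of the 10 genes held. Without the 2 farthest libraries r was 0.332 for Dnmt1 and Uhrf1, 0.497 for Dnmt1 and 0.507 for Uhrf1 with the S phase genes, and -0.0409 for Dnmt3a and Dnmt3b. With all 15 libraries, r for Dnmt3a and Dnmt3b was 0.245 with removal of group means and 0.831 without it. The cause of these changes was not tested beyond the fewer counts or libraries that each fit used.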
